A study of Mus musculus with 3 samples.

Results

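The Hippo pathway genes Yap1, Wwtr1, Tead1, Tead2, Tead3, Tead4, Lats1, Lats2, Stk3 and Stk4 were described on 3 expression arrays of mouse neurospheres. They were chosen by name, as the core kinases, coactivators and DNA-binding factors of the pathway, with earlier results of these data known. A gene was measured where at least 1 probe set carried its symbol and no other, and the probe set with the highest mean over the arrays was used. This gave 9 of the 10 genes, out of 22180 genes on the array. Stk3 had no such probe set among the values used here and was not analysed here.

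The 3 arrays belonged to 1 group, so no condition was compared with another. Each held RNA from wild-type CD1 mouse cells of the ventricular-subventricular zone, a stem cell niche in the wall of the lateral ventricles, taken from pups of postnatal day 8, or day 7 or 8 by the culture protocol. The cells were plated at 10 cells per microlitre and grown for 7 days as floating spheres with 10 ng/ml FGF, 20 ng/ml EGF and 2 micrograms per ml heparin. The medium also held 2% B27 and 0.5 mM glutamine. Pups were cultured separately, but the labels do not say if an array stands for 1 pup. The p-values therefore cover only variation between these arrays, which may be technical. That variation was shared over genes of like signal and is not that of each gene. Nor do the p-values measure the spread among the probe sets that set the background. These are cultured cells and not the tissue itself.

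In the Hippo pathway the MST kinases (encoded by Stk3 and Stk4) activate the LATS kinases, which phosphorylate the coactivators YAP and TAZ (encoded by Yap1 and Wwtr1). Phosphorylated YAP and TAZ are held in the cytoplasm and degraded, whereas the unphosphorylated proteins enter the nucleus and bind TEAD factors at target genes. The pathway is known for restraining growth of tissues and responds to cell density and cell shape. An array measures transcripts and carries no information on phosphorylation or on where in the cell a protein lies.

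Signals are log2 values made by the authors with RMA. Background on each array was read from 1400 probe sets for olfactory and vomeronasal receptors, which are made in the nose and serve here as genes not expected in these cells, and their 95th percentile was the reference level. It was 5.63, 5.53 and 5.71 on arrays 1, 2 and 3. The margin of a gene is its signal minus that level, and values after ± are SDs over the 3 arrays. A gene counted as above when its margin passed a one-sided moderated test in limma at an adjusted p under 0.05 over all genes. Of the 22180 genes, 13102 were called above, which is 59.1%, and this share is the background for every count below that uses this call. The 22180 genes include the 1390 receptor genes that set the level, of which few can pass it by construction. Shares above the level and median margins over all genes are therefore lower than they would be without these genes. Probes bind with different strength, so signals of single genes were not compared with each other. Places among the receptor probe sets and medians over gene lists also carry probe strength and are given as descriptions only. Transcripts used as markers of neural precursors were detected. All 9 measured markers (Sox2, Nes, Vim, Fabp7, Pax6, Egfr, Slc1a3, Gfap and Olig2) were above the level, with means between 8.50 and 13.73. No separate lists for astrocytes, oligodendrocytes or neurons were read, so these markers do not tell precursors from such cells.

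All 9 measured Hippo genes were above the reference level, and each was above it on every array. The share over all genes was 59.1%. As a description, the median margin of the 9 was 2.94 log2 units and that of all genes 0.76, which does not separate transcript level from probe strength. Tead4 had the largest adjusted p of the 9, 1.93e-21 by limma. A call says that the signal exceeded the level, in RNA from whole cultures, where a transcript in fewer cells and less transcript per cell cannot be told apart. With the call read without a model, as a signal above the level on each array, all 9 were again above, against 59.6% of all genes. The 9 were all above against the 90th percentile of the receptors (66.7% of all genes) and 8 of 9 against the 99th (44.9%). Against keratin-associated, defensin and bitter taste receptor genes, tissue-restricted genes used as another background, 8 of 9 were above (43.4%). With the median over probe sets 9 of 9 were above (58.5% of all genes), and with the lowest probe set 8 of 9 (56.8%). Among the 9, these settings could change only Yap1, the only gene with a further probe set. Its margin with the median was 0.93. Leaving out replicate 1 (56.4% of all genes above) or replicate 2 (58.4%) left all 9 above. The 9 were also above without replicate 3, for which the share over all genes is not given.

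**Figure D1:**
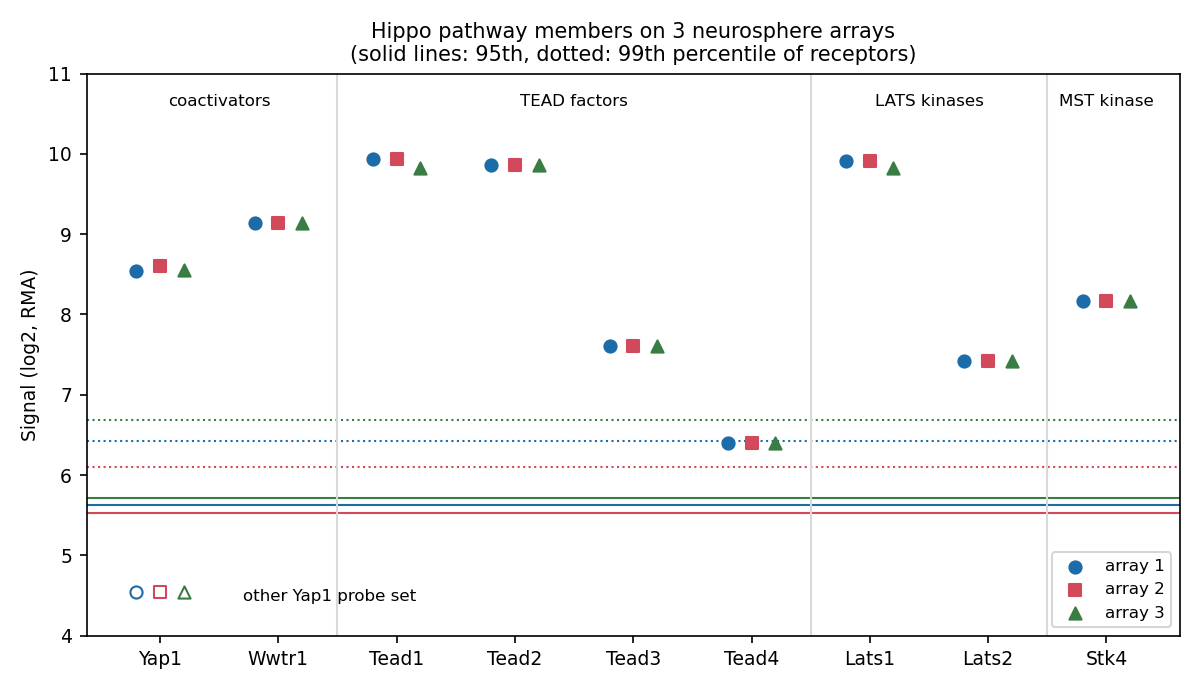
Log2 signals of the 9 measured Hippo genes (x axis, by role) on array 1 (circles), array 2 (squares) and array 3 (triangles), with the 95th (solid lines) and 99th (dotted lines) percentile of receptor probe sets on each array in the same colour. Every gene lies above the solid lines, Tead4 (6.40) lies among the dotted lines, and the other Yap1 probe set (open symbols, 4.54) lies below all lines.

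The coactivator genes were both detected. Yap1 encodes YAP, and its probe set had signals of 8.54, 8.61 and 8.55 on arrays 1, 2 and 3. Array 2 was the highest, and the range over the arrays was 0.067. Its margin was 2.94 ± 0.12 (SD, n = 3), and on each array 1 of the 1400 receptor probe sets had a higher signal. Yap1 was the only measured gene of the 9 with a further probe set of its own symbol. That probe set read 4.54 on every array, 1.09 below the reference level on average, where up to 27.9% of receptor probe sets were higher. The statement on Yap1 therefore rests on 1 of its 2 probe sets, chosen for its higher signal.

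Wwtr1, which encodes TAZ, had 9.14 on every array. Its margin was 3.52 ± 0.091 (SD, n = 3). Because the 3 signals were identical, this SD is that of the reference levels alone. Like Yap1, Wwtr1 was exceeded by 1 of the 1400 receptor probe sets on each array.

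Promoters are shown because TEAD factors recognise the core motif GGAATG, and because feedback onto pathway genes is a known feature of YAP and TAZ. RefSeq promoter windows (GRCm38.p6, 250 bases before to 50 bases after a start) were matched by symbol for 7 of the 10 genes. The motif or its reverse complement CATTCC was in at least 1 window of 4 of the 7 genes, Yap1, Wwtr1, Tead3 and Lats2, and in none of Tead2, Lats1 and Stk4. Over all RefSeq genes, 16.6% had it, and 14.7% of the 32851 windows did. A match describes letters in a window and is no binding site by itself. The 250 bases before the start of both coactivator genes follow, 5′ to 3′ on the gene's strand, with the motif in capitals, Yap1 from chr9:8004597-8004846 and Wwtr1 from chr3:57575911-57576160, both on the minus strand.
Yap1: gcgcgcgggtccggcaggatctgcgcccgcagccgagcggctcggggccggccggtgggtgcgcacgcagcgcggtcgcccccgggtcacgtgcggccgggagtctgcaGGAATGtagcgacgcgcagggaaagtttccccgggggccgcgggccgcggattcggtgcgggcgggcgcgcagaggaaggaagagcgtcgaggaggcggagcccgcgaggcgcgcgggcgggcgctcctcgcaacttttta
Wwtr1: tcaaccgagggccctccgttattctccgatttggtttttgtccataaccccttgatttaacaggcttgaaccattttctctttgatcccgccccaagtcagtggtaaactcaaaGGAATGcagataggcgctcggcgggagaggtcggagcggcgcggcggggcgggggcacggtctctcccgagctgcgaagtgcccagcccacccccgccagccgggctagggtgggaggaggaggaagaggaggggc
The match began 141 bases before the start in Yap1. For Wwtr1 the outer of 2 listed starts is shown, with the match 136 bases before it and 170 bases before the other start.

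All 4 TEAD genes, which encode the DNA-binding partners of YAP and TAZ, were above the reference level. Tead1, needed for heart development in the mouse, had 9.94, 9.94 and 9.83 on arrays 1, 2 and 3. Arrays 1 and 2 held the same value and array 3 was lower by 0.11, the widest range of the 9 genes. Its margin was 4.28 ± 0.15 (SD, n = 3). Tead2, which is expressed in the early mouse embryo and its neural tube, had 9.86 on each array, with a range of 0.0024. Its margin was 4.23 ± 0.092 (SD, n = 3). Both genes were thus far above the level on all arrays.

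Tead3, known from placenta, had 7.61 on every array and a margin of 1.99 ± 0.091 (SD, n = 3), and at most 2 of the 1400 receptor probe sets were higher. Tead4, needed for the trophectoderm of the mouse embryo, had 6.40 on every array. Its margin was 0.77 ± 0.091 (SD, n = 3). Between 0.643% and 1.71% of receptor probe sets were higher than Tead4, depending on the array. The 99th percentile of the receptors was 6.42, 6.09 and 6.69 on arrays 1, 2 and 3, so Tead4 exceeded that stricter level on array 2 and lay under it on arrays 1 and 3. Against that level its mean margin was -0.0017, and limma's test no longer called it (adjusted p = 1). The adjusted p of Tead4 over all settings tried ran up to 1. Tead1, Tead2 and Tead3 stayed above under each setting tried.

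Of the 3 listed starts of Tead3, the one with the most matches is shown, since it holds the motif more than once. It lies at chr17:28350601-28350850 (GRCm38.p6, minus strand), given 5′ to 3′ on the gene's strand with CATTCC in capitals.
Tead3: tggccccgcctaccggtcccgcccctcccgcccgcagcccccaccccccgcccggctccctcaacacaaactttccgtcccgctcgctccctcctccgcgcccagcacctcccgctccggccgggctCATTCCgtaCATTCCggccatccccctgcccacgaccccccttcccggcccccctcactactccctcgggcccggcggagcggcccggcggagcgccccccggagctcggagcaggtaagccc
The matches began 123 and 114 bases before that start, and another lay just past the start.

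The kinase genes were detected as well. Lats1, a kinase that phosphorylates YAP and TAZ, had 9.91, 9.92 and 9.83 on arrays 1, 2 and 3. Array 3 was the lowest, and the range was 0.091. Its margin was 4.26 ± 0.14 (SD, n = 3). Lats2, its paralog and itself a known target of YAP in feedback, had 7.42 on every array and a margin of 1.80 ± 0.091 (SD, n = 3). Stk4, which encodes the upstream kinase MST1, had 8.16 on every array and a margin of 2.54 ± 0.091 (SD, n = 3). None of the 3 was exceeded by more than 2 of the 1400 receptor probe sets on any array.

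Of the 2 listed starts of Lats2, 1 window held the motif, beginning at base 5 after the start. The 30 bases around it are at chr14:57746102-57746131 (GRCm38.p6, minus strand), shown because the gene is known as a feedback target.
Lats2: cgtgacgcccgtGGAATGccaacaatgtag

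Many signals of these genes were tied between arrays. Of the 9 genes, 5 (Wwtr1, Tead3, Tead4, Lats2 and Stk4) held exactly the same value on all 3 arrays, against 39.4% of all genes. A further 2 genes, Tead1 and Tead2, were equal on a pair of arrays, against 35.7% of all genes. Yap1 and Lats1 differed on all 3. Why so many summarised signals are identical was not tested, and an SD of 0 is no measure of the spread between cultures. The median range of all genes was 0.036. Tead1 (0.11), Lats1 (0.091) and Yap1 (0.067) had wider ranges than that median. Of all genes, 33.0% had a wider range than Tead1, 37.0% than Lats1 and 42.0% than Yap1. Of the 4 genes with unequal arrays, Yap1, Tead2 and Lats1 were highest on array 2, and Tead1 and Lats1 were lowest on array 3. Over the 8233 genes that were above the level and unequal, 54.5% were highest on array 2 and 52.4% lowest on array 3.

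The genes around this core were read from 7 lists with 109 genes, of which 98 were measured. Of these, 86 (87.8%) were above the reference level and 12 were not, against 59.1% of all genes. The lists were chosen with earlier results of these data known, so the shares are descriptions only. The median margin of the 98 genes was 2.86, with the same limit as for the 9 genes beside the 0.76 of all genes. Against the 99th percentile of the receptors, 71 of the 98 were above, beside 44.9% of all genes.

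**Figure D2:**
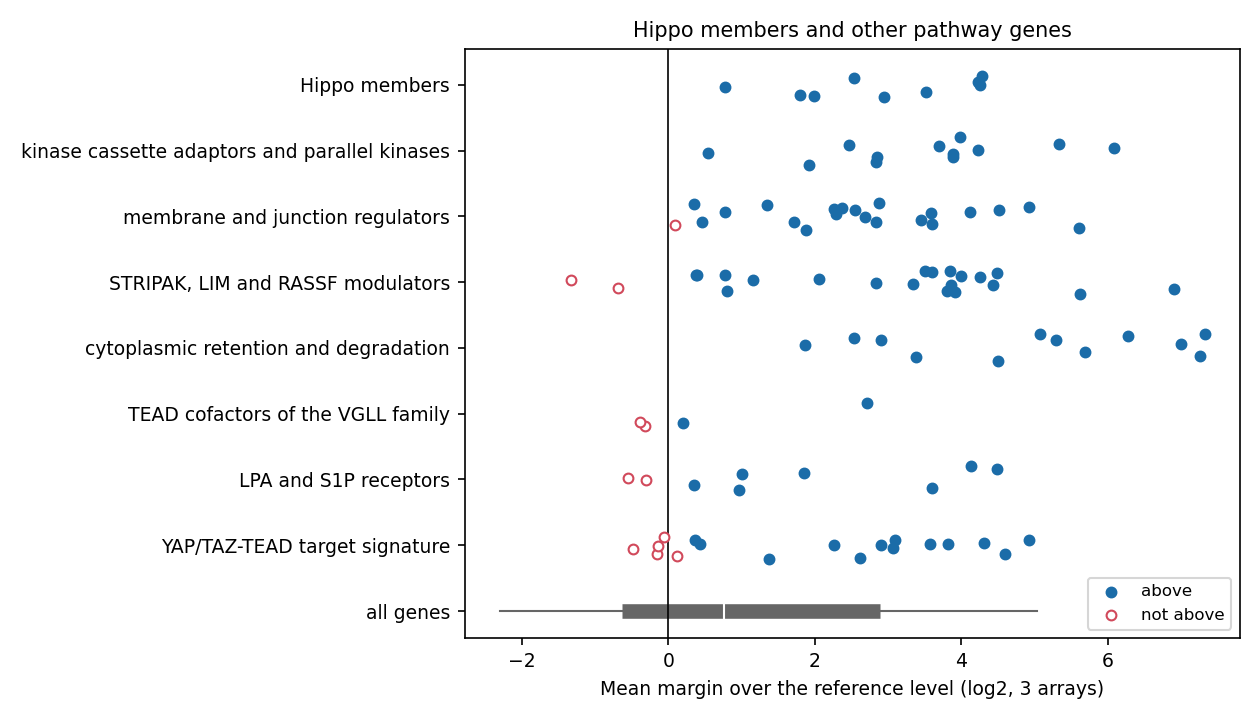
Mean margin over the reference level (x axis, log2 units, mean of 3 arrays) of each measured gene, with the 9 Hippo genes in the top line, the 7 lists under it, and all 22180 genes at the bottom as the 5th to 95th percentile (thin line), the middle 50% (bar) and the median (white mark, 0.76). Filled points were above the level and open points were not; the 12 open points lie in 5 of the 7 lists.

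Adaptors of the kinase cassette and kinases that act in parallel with MST were above the level in 12 of 12 measured cases, against 59.1% of all genes. Sav1, the scaffold that joins MST to LATS, had 8.46 ± 0.039 (SD, n = 3), and the LATS cofactor genes Mob1a and Mob1b had 9.51 ± 0.026 and 9.85. Among kinase genes that can phosphorylate LATS, Map4k4 had 11.71 ± 0.051, Map4k5 10.96, Mink1 9.61 and Tnik 9.51. Map4k1, a kinase of blood cells, had 6.16 on every array. Its margin of 0.54 turned to -0.24 when the 99th percentile of the receptors was the level.

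Regulators at the membrane and at cell junctions were above in 20 of 21 measured cases. Nf2, which encodes the tumour suppressor Merlin, had 8.52, 8.63 and 8.36 on arrays 1, 2 and 3, and was highest on array 2. The WW-domain scaffold genes Wwc1 (also called Kibra) and Wwc2 had 7.34 ± 0.022 and 8.45 ± 0.056, and Frmd6, a FERM-domain protein gene, had 6.97 ± 0.18 (SD, n = 3 each). Frmd6 was no longer called against the keratin-associated, defensin and bitter taste receptor genes (margin 0.52, limma adjusted p = 0.0579, the highest over all settings tried). The angiomotin genes, whose proteins bind YAP, were each above: Amot had 7.91 ± 0.086, Amotl1 8.32 and Amotl2 7.99 ± 0.12. Ptpn14, a phosphatase gene whose product binds YAP, had 7.51 ± 0.075. Crb3, a polarity gene of epithelia, was not called, with 5.70, 5.34 and 6.12 on arrays 1, 2 and 3 (limma adjusted p = 0.177). It lay above the level on arrays 1 and 3 and under it on array 2, and it was called without replicate 2 (adjusted p = 0.00432) and against the 90th percentile (adjusted p = 6.21e-11), and under no other setting tried.

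Modulators of the kinases, of the STRIPAK, LIM-domain and RASSF groups, were above in 20 of 22 measured cases. STRIPAK is a phosphatase assembly that acts on MST, and some RASSF proteins act on MST in the other direction. The striatin genes Strn, Strn3 and Strn4 had 9.87, 10.11 and 8.97, and Slmap and Sike1 had 9.13 ± 0.038 and 11.24. Fgfr1op2 had 9.22 and Mob4 10.05, each the same on all arrays, whereas Strip2 had 6.02 and fell under the 99th percentile of the receptors (margin -0.38). The genes not above were Stk26, a kinase of this complex, at 4.94, and Rassf6, a binding partner of MST, at 4.29, both the same on every array.

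Genes for holding YAP and TAZ in the cytoplasm and for degrading them were above in 12 of 12 measured cases. The phosphoprotein-binding genes Ywhab, Ywhae, Ywhaq and Ywhaz had 11.89, 12.87, 12.94 and 12.63, and Ywhag and Ywhah had 8.16 and 8.999. For Ywhaq, Ywhaz, Ywhag and Ywhah this is the brightest of several probe sets. The others of these genes had lower means, from 6.60 for Ywhah to 9.02 for Ywhaz, and down to 7.04 for Ywhaq. All of them lay over the reference level on average. Sfn, the epithelial member of that family, had 7.36, 7.32 and 7.79, with array 3 the highest. Btrc, an F-box gene for the degradation of phosphorylated YAP and TAZ, had 10.69 ± 0.018 (SD, n = 3).

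The VGLL genes encode TEAD cofactors that compete with YAP and TAZ. Of 4 measured genes, 2 were above the level, against 59.1% of all genes. Vgll4, an inhibitor of TEAD, had 8.33, 8.35 and 8.33 on arrays 1, 2 and 3, a margin of 2.71. Vgll2, a muscle cofactor, had 5.83 on every array, a margin of 0.21 (limma adjusted p = 0.0069). Its call ended against the 99th percentile, without replicate 1 (adjusted p = 0.156) and on leaving out replicate 2 (adjusted p = 0.0522), so that only Vgll4 was then above. Over all settings tried its adjusted p ran up to 1. Vgll1 had 5.28, 5.22 and 5.44 and Vgll3 had 5.18, 5.23 and 5.29, and both lay under the level on every array.

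Receptors for lysophosphatidic acid and sphingosine 1-phosphate, lipids of serum that lower LATS activity, were above in 7 of 9 measured cases. Lpar4 had 10.10 on every array, S1pr1 had 9.75 ± 0.079, S1pr3 9.23 ± 0.096 and S1pr2 7.48 ± 0.055 (SD, n = 3). Lpar1 (6.59), S1pr5 (6.64) and Lpar2 (5.97) were above the 95th percentile and were no longer called against the 99th. Against the 99th percentile 4 of the 9 were above, near the share of 44.9% over all genes. Lpar3 (5.32) and S1pr4 (5.08 ± 0.11) were not above.

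Target genes were taken from a YAP and TAZ signature known from human cancer cells, without genes counted above as members or in another list. Of 18 measured genes 13 were above the level and 5 were not, a share of 72.2% against 59.1% of all genes. Ccn1 (formerly Cyr61), a matrix protein gene, had 8.20, 8.31 and 8.20 on arrays 1, 2 and 3, with array 2 the highest and a margin of 2.61. Ccn2 (formerly Ctgf), its close relative and a widely used readout of YAP, had 5.97, 5.97 and 6.06. Its margin of 0.37 passed the test (limma adjusted p = 1.93e-06, up to 1 over all settings). The other Ccn2 probe set read 5.09 on every array, and Ccn2 was not above with the median over its probe sets (margin -0.081) or against the 99th percentile (-0.40).

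Ankrd1, an ankyrin repeat gene of heart muscle and another widely used readout, had 5.13, 4.998 and 5.32 on arrays 1, 2 and 3 and lay under the level on each. The remaining genes not above were Foxf2 (5.48), a mesenchymal forkhead factor gene, Dock5 (5.49), Nuak2 (5.56) and Nt5e (5.75), the ectonucleotidase CD73. Nt5e exceeded the level on each array by a margin of 0.12 that did not pass (limma adjusted p = 0.0903, as low as 4.3e-12 against the 90th percentile). Against the 90th percentile Foxf2, Dock5 and Nuak2 were also called. Genes above included Axl (9.94), a receptor tyrosine kinase gene, F3 (10.55 ± 0.047), which encodes tissue factor, and Igfbp3 (8.71 ± 0.10), an IGF-binding protein gene. Crim1 (7.89 ± 0.050), Fjx1 (9.45 ± 0.013) and Ccdc80 (8.53) were above as well. A further Ccdc80 probe set had a mean of 5.85. The other 5 genes above had means between 6.05 and 10.22.

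**Figure D3:**
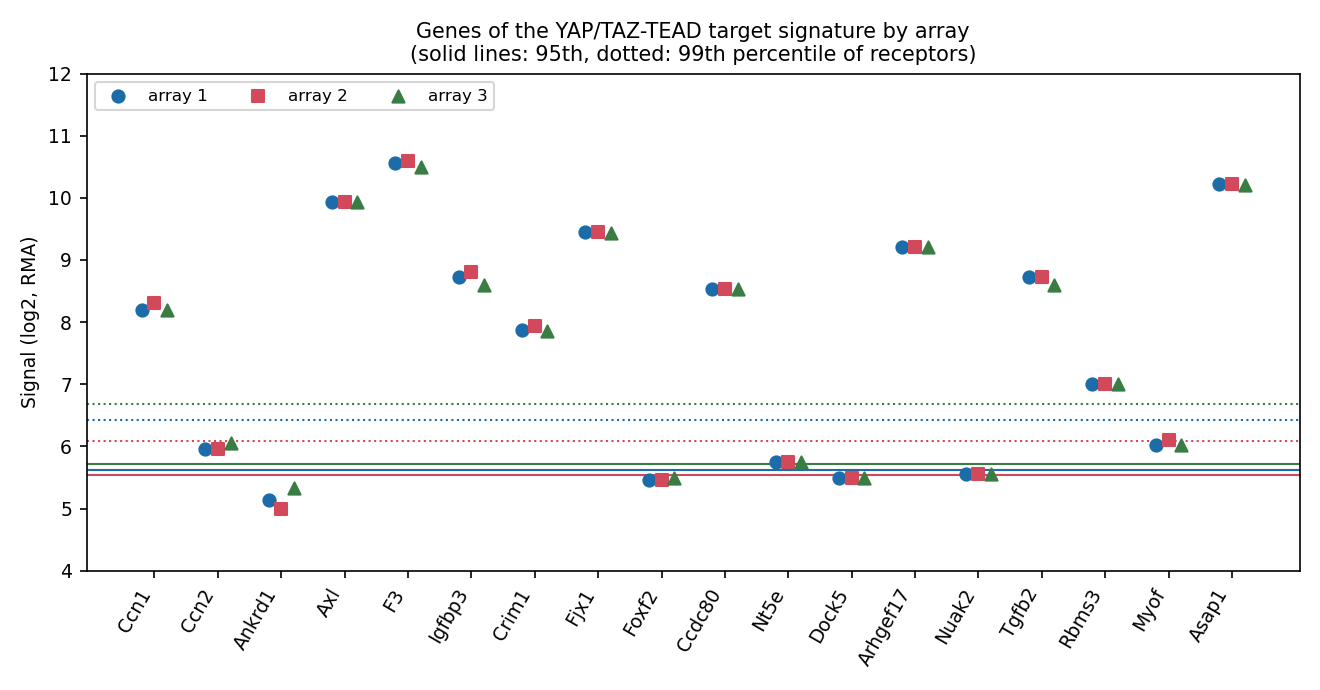
Log2 signals of the 18 measured target genes (x axis) on array 1 (circles), array 2 (squares) and array 3 (triangles), with the 95th (solid) and 99th (dotted) percentile of the receptors on each array. Ccn1 lies near 8.24 on average, Ccn2 between the solid and dotted lines, and Ankrd1 under the solid lines on every array.

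The motif GGAATG or its reverse complement was in the promoter of 4 of 12 target genes with a RefSeq window, Ccn1, Ankrd1, Axl and Crim1, against 16.6% of all RefSeq genes. Ccn1 and Ankrd1 are shown because both are standard TEAD targets and differed in their call on these arrays. Ccn1 is from chr3:145649986-145650235 and Ankrd1 from chr19:36119845-36120094 (GRCm38.p6, minus strand), 250 bases before the start, 5′ to 3′ on the gene's strand, with the motif in capitals.
Ccn1: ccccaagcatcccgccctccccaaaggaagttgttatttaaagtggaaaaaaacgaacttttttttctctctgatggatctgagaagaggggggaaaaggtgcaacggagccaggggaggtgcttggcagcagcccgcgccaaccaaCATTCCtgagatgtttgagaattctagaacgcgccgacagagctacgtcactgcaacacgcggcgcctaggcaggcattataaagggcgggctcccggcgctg
Ankrd1: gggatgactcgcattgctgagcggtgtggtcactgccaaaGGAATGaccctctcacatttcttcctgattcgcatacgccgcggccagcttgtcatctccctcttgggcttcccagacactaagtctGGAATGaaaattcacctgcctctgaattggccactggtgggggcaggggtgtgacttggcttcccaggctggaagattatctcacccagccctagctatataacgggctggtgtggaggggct
The match began 103 bases before the start in Ccn1, and at 210 and 123 bases before it in Ankrd1. The windows thus hold the motif in a gene that was above the level and in a gene that was not.

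Several Hippo and target genes are also transcribed in cells other than neural precursors, so markers of such cells were read on the same arrays. Of 6 endothelial markers 1 was above (Kdr, 6.84 ± 0.064), and Pecam1 (5.30), Cdh5 (5.48), Cldn5 (5.11), Tek (4.998) and Emcn (4.39) were not. Of 8 mural and fibroblast markers 5 were above (Pdgfrb 6.99, Rgs5 7.25, Col1a1 6.24, Col1a2 6.05 and Acta2 7.45), and Col3a1 (5.38), Dcn (4.70) and Lum (4.00) were not. Of 7 microglia markers 3 were above (Cx3cr1 6.66, P2ry12 6.05 and C1qa 6.12), while Aif1 (4.73), Csf1r (5.55), Tmem119 (5.59) and Ptprc (4.27) were not. Of 6 ependymal markers 2 were above (Foxj1 7.86 and Ccdc153 6.59), while Rsph1 (5.66), Dnah5 (5.56), Hydin (5.40) and Tmem212 (5.05) were not. Averaged over each list, the level ran from 5.34 to 5.36 over the arrays for endothelial, 6.00 to 6.01 for mural and fibroblast, 5.46 to 5.67 for microglia and 5.98 to 6.07 for ependymal markers. The part of such cells in the Hippo signals was not tested.

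**Figure D4:**
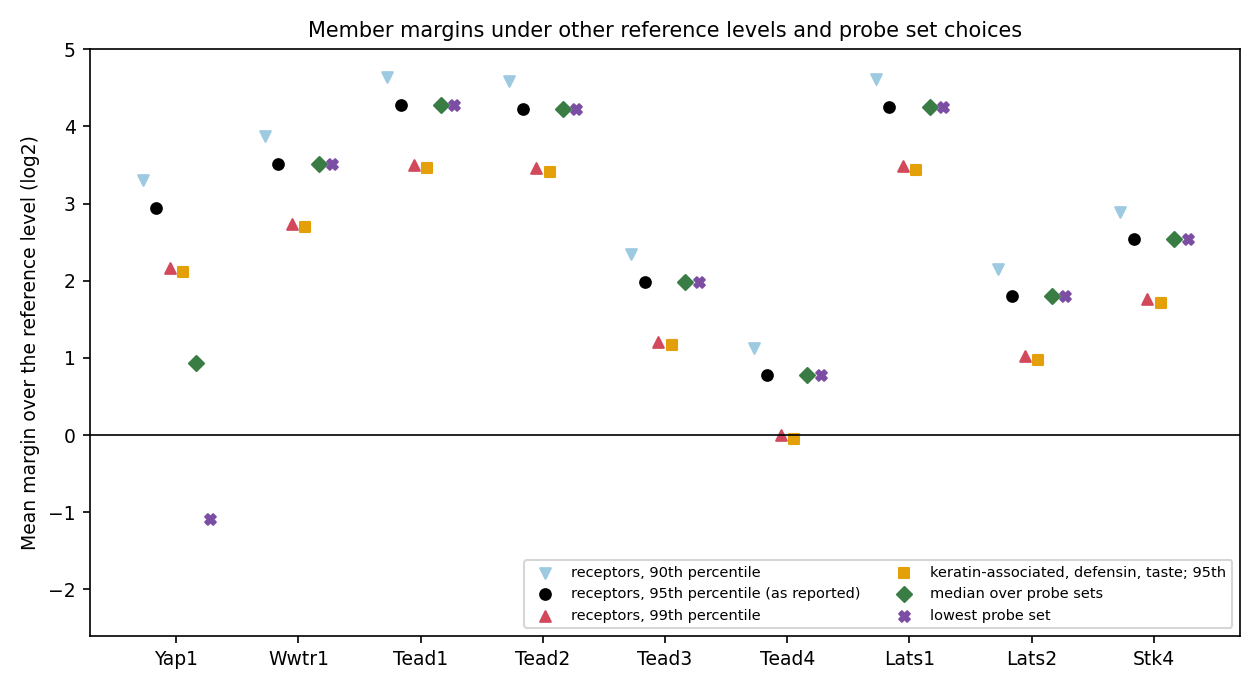
Mean margin of the 9 Hippo genes (y axis, log2 units) against the 90th, 95th and 99th percentile of the receptors, against the 95th percentile of keratin-associated, defensin and bitter taste receptor genes, and, at the 95th percentile of the receptors, with the median or the lowest of the probe sets of a gene. Tead4 falls to about 0 with the 2 stricter levels (-0.0017 and -0.049), and Yap1 to -1.09 with its lowest probe set, while the other 7 genes stay above 0.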

How the data were processed

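Gene expression was measured on 3 arrays of 1 group. The authors deposited log2 signals of 41345 probe sets. The submitters' processing notes name RMA, a method that corrects background, normalises between arrays and summarises the probes of a set, without a version or options. Of the probe sets, 23521 carried 1 gene symbol in the array's annotation table, 1814 several and 16010 none, and only the first were named, which gave 22180 genes. The margin of each gene over its array's receptor level was fitted with limma 3.58.1 in R 4.3.3 (intercept only, eBayes with an intensity trend, p-values adjusted by Benjamini-Hochberg across the 22180 genes). The prior degrees of freedom were infinite, so genes of like signal shared 1 spread and margins from 0.145 upwards were called. Most very small p-values are not printed. The fit was also run on simulated normal values with 1 spread for all genes and no ties. The real values hold many ties, so that run cannot show how the calls behave on them. The number of arrays limits the precision. No slide or scan batch is given in the labels. The members and lists were chosen with earlier results of these data known. Text names all members, the first 8 genes above and every gene not above per pathway list, and every measured marker. Promoters came from RefSeq (GRCm38.p6), matched by symbol. Figures were drawn with matplotlib 3.10.9.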

Additional observations from a re-analysis of the deposited data

How the results depend on the processing

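Under 14 alternatives 8 or 9 of the 9 Hippo genes were above the reference level, and 70 to 91 of the 98 other pathway genes. The 70 came with keratin-associated, defensin and bitter taste receptor genes as the reference, where 43.4% of all genes were above. The 91 came with the 90th percentile of the receptors, where 66.7% of all genes were above. Without each replicate in turn the counts were 9 to 9 Hippo genes and 85 to 86 other pathway genes. The share of all genes above was 56.4% without replicate 1 and 58.4% without replicate 2, and is not given without replicate 3. With the 99th percentile of the receptors (44.9% of all genes above) 15 of the 86 pathway genes were no longer called. Among the genes named, margins turned negative for Tead4 (-0.0017), Map4k1 (-0.2389), Strip2 (-0.3787), Vgll2 (-0.5709), Lpar2 (-0.4306) and Ccn2 (-0.4047). With keratin-associated, defensin and bitter taste receptor genes as the reference (43.4% above) they were -0.0488, -0.2859, -0.4257, -0.6179, -0.4777 and -0.4517 in the same order, and 16 pathway genes were no longer called. Another 5 and 7 pathway genes not named by the rule also turned negative in these settings (Crb2, Patj, Rassf4, Rassf5 and Myof in both, Crb1 and Rassf3 in the second). Lpar1, S1pr5 and Ajuba kept a positive margin but no longer passed in either setting, as did Crb1 and Rassf3 in the first and Frmd6 in the second. In both settings 1 of 4 VGLL genes and 4 of 9 lipid receptor genes were above. With the lowest probe set of each gene the margin was -1.0872 for Yap1 and -0.5329 for Ccn2, and with the median over probe sets it was -0.0808 for Ccn2. The 99th percentile and the other reference genes set a higher level, which also differed more between arrays. It was 6.42, 6.09 and 6.69 on arrays 1, 2 and 3 for the former and 6.41, 6.11 and 6.82 for the latter. In the reported setting it was 5.63, 5.53 and 5.71. The lowest and the median probe set give a lower signal by construction. What part the height and the spread of the level had in the lost calls was not tested. Without replicate 1 or replicate 2 the VGLL count was 1, and without replicate 3 it was 2; the cause was not tested. The widest range among the Hippo genes was 0.067 to 0.11 without each replicate, 0.093 after quantile normalization and 0.13 after centring each array on its median. Centring each array on its median moves gene and reference alike and cannot change a margin. No paired analysis was possible because the 3 arrays form 1 group. With 3 arrays and tied values, small margins near the level are the least certain.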
